A study of Mus musculus with 605 samples.

Results

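Melanocytes of a nevus mouse model were compared with wild-type melanocytes at postnatal day 56 (P56), cell by cell and across the transcriptome. All melanocytes of both genotypes were entered if their TPM, a measure of transcript abundance corrected for gene length and relative to all transcripts of the cell, summed to at least 750000, if mitochondrial genes took at most 20% of TPM, and if at least 1000 genes were above 0. These limits kept 165 of 173 melanocytes, 84 of 88 mutant and 81 of 85 wild-type cells, out of 605 single cells in the whole series. In the mutant, the tyrosinase promoter of a transgene drives an activated form of Nras constitutively in the melanocyte lineage, and nevus melanocytes populate the dermis. Wild-type cells carry no such transgene. Cells of both groups came from dorsal skin at P56, when wild-type follicles rest (telogen), whereas mutant skin also holds growing (anagen) follicles with pigment-making melanocytes. Cells were caught singly in microfluidic chambers and full-length cDNA was sequenced. For bulk RNA the study sorted melanocytes by a red reporter, and how the single melanocytes were sorted is not stated apart from this.

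The labels name no mouse, so each genotype is 1 sample on 1 plate. No test between genotypes was made, no difference could be checked in replicates, and genotype cannot be told apart from plate or from the hair cycle stage of the skin. Standard deviations (SD) are over cells, and shares of cells carry 95% intervals by the exact Clopper-Pearson method, which take in counting error alone, and for a count of 0 the limit given is 3 cells of the total. Each cell was scaled to its TPM total, times 10000, and transformed as log2(value + 1). A difference is the mean over mutant cells minus the mean over wild-type cells on that log2 scale, which understates differences of genes with low values. Detection in a cell means a TPM of at least 1.

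Melanocytes are neural crest derivatives that make pigment in melanosomes, organelles related to lysosomes. MITF directs their pigment genes, and KIT, the endothelin receptor and the melanocortin receptor carry growth and pigment signals into the cell. Activated RAS drives the RAF, MEK and ERK kinases, and in melanocytes its sustained activity is known to halt division, which leaves the benign clusters of a nevus. Interferons raise the transcripts of MHC class I and of antiviral genes, and T and NK cells read class I molecules at the cell surface.

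Most cells carried melanocyte transcripts. All 4 markers, Dct, Pmel, Tyrp1 and Mlana, were detected in 66 of 81 wild-type cells (81.5%) and 63 of 84 mutant cells (75%), and at least 3 of them in 76 and 77 cells. Among the 12 cells with fewer than 3 of these markers, 5 held over 5000 summed TPM of markers of another cell type. Wild-type cell A10 had 1 melanocyte marker and 17506 summed TPM of myeloid markers. Wild-type cell C11 had none, with 9133 TPM of Schwann cell and 6656 TPM of fibroblast markers. Mutant cell C5 had none, with 26874 TPM of keratinocyte markers, and mutant cell G9 had none, with 5923 TPM of endothelial markers. Mutant cell E8 had 2 melanocyte markers and 5322 TPM of hair shaft and root sheath markers. Cells with all 4 markers could hold keratinocyte transcripts too, as in mutant cell A2 (21178 TPM) and wild-type cell G5 (17964 TPM). The cells with no marker or 1 went against their labels and were kept by the rule, so results are also given for cells with at least 3 markers. Transcripts of the Y-linked genes Ddx3y, Eif2s3y, Kdm5d and Uty were detected in no cell of either plate. No pair of cells had identical values.

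The plates differed in the number of genes found and in keratinocyte RNA. Depth cannot be read from TPM, and the number of genes above 0 was the nearest measure of it. It ran from 1387 over a median of 2233 to 6298 in wild-type cells, and from 1013 over 2873 to 6416 in mutant cells. The 22 keratinocyte markers summed to at least 1 TPM in 33 of 81 wild-type (40.7%) and 71 of 84 mutant cells (84.5%). Their summed TPM was 0 at the median and 17964 at the highest in wild-type cells, and 62.5 and 26874 in mutant cells. All 22 were detected in at least 1 mutant cell and 18 in at least 1 wild-type cell, where Krt1, Krt6a, Krtdap and Ly6d were not found. Bulge cells come from the stem cell region of the hair follicle, and no label ties them to the mice of the melanocytes. Their median sum was 29189 TPM in wild type and 14153 TPM in the mutant. By the mean of this sum, keratinocyte RNA in melanocyte wells amounted to 1.40% of a wild-type bulge cell and to 4.71% of a mutant one. Markers of the hair shaft and root sheath reached 1 TPM in 1 of 81 wild-type and 17 of 84 mutant cells. Fibroblast markers did so in 15 of 81 and 28 of 84 cells. Their mean sum was 127 TPM in wild type and 63.3 TPM in the mutant. A fibroblast part in the differences below was not tested. Gene number and keratinocyte RNA were thus higher in mutant wells, and 2 sets of cells matched on them were formed. In the first, 53 pairs of 1 mutant and 1 wild-type cell had gene numbers within 10% of each other, with medians of 2448 and 2461 genes. In the second, 30 pairs were also within 0.25 in log10 of the keratinocyte sum.

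**Figure D1:**
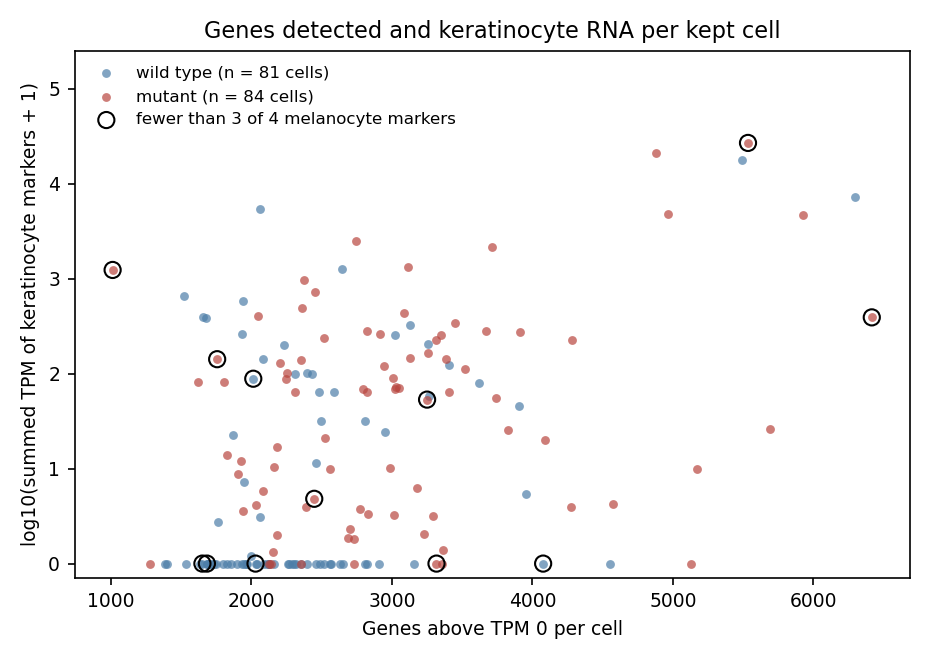
Each point is 1 kept melanocyte, with the number of genes above TPM 0 on the horizontal axis and log10 of the summed TPM of 22 keratinocyte markers plus 1 on the vertical axis, 81 wild-type cells in blue and 84 mutant cells in red. Rings mark the 12 cells with fewer than 3 of the 4 melanocyte markers. Most wild-type cells lie at a keratinocyte sum of 0, whereas 71 of 84 mutant cells lie at 1 TPM or more.

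Across the transcriptome, 8304 genes reached the detection level in 10% or more of either genotype's cells. Of these, 229 genes (2.76%) were higher in mutant cells by at least 0.5 and 118 genes (1.42%) were lower by at least 0.5. A positive difference was found for 5041 genes (60.7%), with a median of 0.03 and quartiles of -0.05 and 0.13. These shares are the background for the counts of every gene list below. Where a gene reached 10% of cells in 1 genotype alone, its sign was largely set by that limit. In the pairs matched on gene number, 4159 of the same genes had a positive difference. The positive share was 67.4% with a pseudocount of 0.1, 72.5% without scaling to the total and 50% after centring on the median. Across genes, which are not independent replicates, the differences in all cells and in the matched pairs had a Pearson correlation of 0.91. The matched pairs are a subset of the same cells.

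The complement gene C4b showed the largest positive difference of all genes considered, followed by Fxyd1, a regulator of the sodium pump. C4b ran from 0 over a median of 127 to 791 TPM in wild-type cells, and from 0 over 818 to 2838 TPM in mutant cells. The cells of the plates overlapped, but 73 of 84 mutant cells (86.9%) lay above the wild-type median. On the log2 scale its mean was 1.14 ± 0.97 (SD, n = 81 cells) in wild type and 2.89 ± 1.25 (SD, n = 84 cells) in the mutant, a difference of 1.75, and it was 1.90 in the matched pairs. C4b has a near-identical neighbour, C4a, so reads could be split between the copies. Fxyd1 was detected in 18.5% of wild-type cells (interval 10.8 to 28.7) and 63.1% of mutant cells (51.9 to 73.4), and its highest cells held 591 and 5754 TPM. Its difference was 1.66, and 2.05 in the matched pairs.

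Other leading genes encode enzymes and membrane or secreted proteins. Dhrs3, which reduces retinal to retinol, was detected in 23.5% of wild-type and 73.8% of mutant cells (difference 1.46). Gsta4, a glutathione transferase that clears lipid aldehydes, was detected in 9.88% and 53.6% (1.44). Another glutathione transferase, Gstp1, had a median of 2776 TPM in wild type and 6650 TPM in the mutant (1.27), although its near copies in the genome make the level uncertain. The peroxiredoxin Prdx2 was detected in 42% and 82.1% of cells (1.30). Pmp22, a membrane protein abundant in myelin and also present outside glia, had a median of 1.51 TPM in wild type and 429 TPM in the mutant (1.32). In pairs matched also on keratinocyte RNA the difference of Pmp22 was 0.73. Paqr6, a membrane progestin receptor gene, differed by 1.22, Sparc, a secreted matrix protein, by 1.17 and Txnip, an inhibitor of thioredoxin, by 1.17. Bulge cells of the same genotypes showed little of these differences for Fxyd1 (-0.03), Gsta4 (0.02), Dhrs3 (0.14) and Pmp22 (0.14), whereas Prdx2 differed by 0.57 and Sparc by 0.62 there too.

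The largest negative difference among named genes was that of Id3, which blocks basic helix-loop-helix factors and responds to BMP signals. Id3 ran from 0 over a median of 1257 to 6523 TPM in wild-type cells, and from 0 over 150 to 2961 TPM in mutant cells. Only 8 of 84 mutant cells (9.52%) lay above the wild-type median. Its mean was 3.52 ± 1.88 (SD, n = 81 cells) against 1.56 ± 1.58 (SD, n = 84 cells), a difference of -1.96 in all cells and -2.26 in the matched pairs. Also lower were Ifrd1 (-1.31), the endoplasmic reticulum chaperone partner Dnajb9 (-1.28), the phosphatase gene Ptp4a1 (-1.22), the chaperone Hsp90aa1 (-1.14), the histone variant gene H2afz (-1.04) and Ppp1r15a, which restores translation after stress (-1.03). Lmna, which encodes the nuclear lamina proteins lamin A and C, had a median of 1765 TPM in wild type and 560 TPM in the mutant (-1.23). In mutant bulge cells Ifrd1 (-1.16), Hsp90aa1 (-1.01), Lmna (-0.94) and Ppp1r15a (-2.18) were lower as well. So were Id3 (-0.68), Dnajb9 (-0.63) and Ptp4a1 (-0.49), whereas H2afz was higher there (0.81).

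A pair of sodium pump regulators was nearly missing from mutant cells. Fxyd2 was detected in 38 of 81 wild-type cells (46.9%, interval 35.7 to 58.3) and 1 of 84 mutant cells (1.19%, 0.0301 to 6.46), with a difference of -1.17. Fxyd6 was detected in 51 of 81 wild-type (63%, 51.5 to 73.4) and 3 of 84 mutant cells (3.57%, 0.743 to 10.1), with a difference of -1.01. Both were found in the same cell in 30 of 81 wild-type cells and in none of 84 mutant cells. Thus 1 member of the family, Fxyd1, was higher in mutant cells and 2 were lower. Also lower were Tnfrsf12a, the receptor for TWEAK (48.1% and 22.6% of cells, difference -1.01), the ubiquitin-conjugating enzyme Ube2d3 (-1.01) and the collagen gene Col12a1 (97.5% and 72.6%, -1.0). All 30 leading genes, 15 in each direction, kept their sign in all 15 alternative settings, among them the matched pairs and the cells with at least 3 melanocyte markers. These genes were chosen by their difference in the same cells, and 2 of the settings, the detection filters, leave each difference as it was. The agreement was therefore largely fixed in advance and is not a replication.

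**Figure D2:**
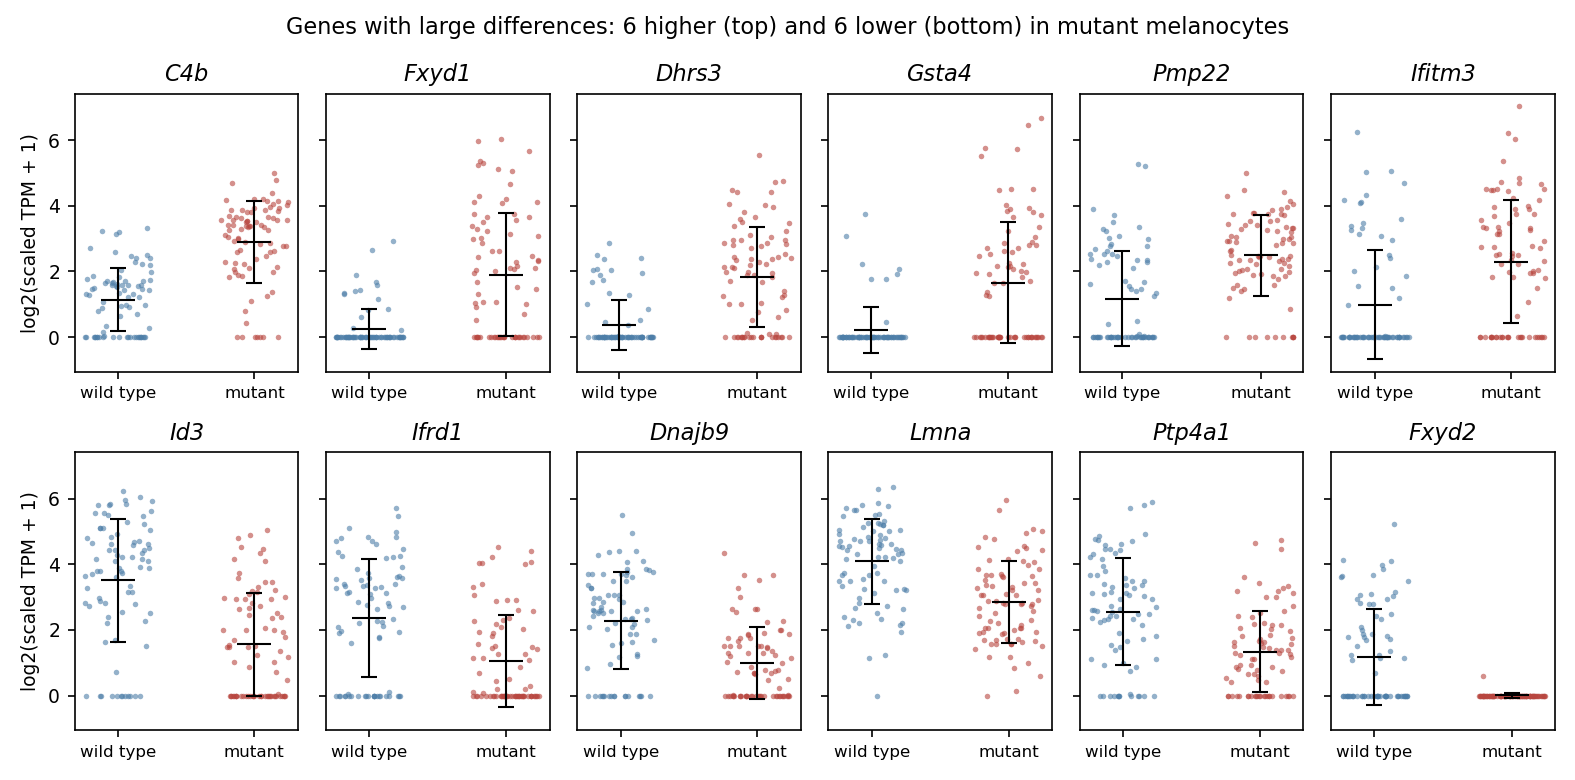
Each point is 1 kept melanocyte, with log2(scaled TPM + 1) on the vertical axis, 81 wild-type cells in blue and 84 mutant cells in red, for the 6 genes described with the largest positive (top row) and negative (bottom row) difference. Horizontal bars are the mean and whiskers 1 SD over cells. Fxyd1, Dhrs3, Gsta4 and Ifitm3 lie mostly at 0 in wild type, whereas Fxyd2 lies almost wholly at 0 in the mutant.

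Genes of MHC class I and its peptide supply were higher in mutant melanocytes. Of 22 members considered, 21 were higher, against 60.7% of all genes, and 8 of them by at least 0.5, against 2.76% of all genes. None was lower by that much. The list had a median of 0.46, and of 0.33 in the matched pairs. B2m, the light chain shared by all class I molecules, ran from 937 over a median of 5439 to 21383 TPM in wild-type cells, and from 192 over 10429 to 28413 TPM in mutant cells (difference 0.69). Both plates thus had B2m in every cell, and 69 of 84 mutant cells (82.1%) lay above the wild-type median. The class I heavy chains differed by 1.29 (H2-T23), 0.95 (H2-D1), 0.91 (H2-K1) and 0.82 (H2-Q7), but these genes are similar in sequence, so reads could be shared among them. H2-T23 encodes Qa-1, which NK cells read through the NKG2A receptor. It was detected in 53.1% of wild-type and 83.3% of mutant cells. The proteasome activator Psme2 differed by 0.65, the immunoproteasome subunit Psmb8 by 0.60 and the activator Psme1 by 0.56. The peptide transporter genes differed less, Tap2 by 0.23 and Tap1 by 0.09, and the chaperone Canx by -0.02. In bulge cells the same 22 genes had a median of -0.15 with 4 higher. B2m differed by -0.68 there. In the melanocyte pairs matched also on keratinocyte RNA the list had a median of 0.36, and B2m differed by 0.80. The part of keratinocyte RNA in the class I differences was not tested beyond such settings.

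Interferon response genes were mostly higher too, with a few leading. Of 27 members considered of 42 listed, 22 were higher, 5 of them by at least 0.5 and none lower by that much (median 0.16, and 0.10 in the matched pairs). Ifitm3, which blocks virus entry, was detected in 32.1% of wild-type cells (interval 22.2 to 43.4) and 69% of mutant cells (58 to 78.7), a difference of 1.31. Ifi27 (29.6% and 71.4%) differed by 1.21, Lgals3bp (29.6% and 75%) by 1.11 and Bst2, which tethers budding virus (16% and 50%), by 0.66. Ifit3 differed by 0.83 and its near copy Ifit3b by 0.35, between which reads could be split. Stat2 (-0.08), Irf7 (-0.07) and Irf1 (-0.18) were not higher, and 14 of the 15 members left out by the detection limit, among them Mx1, Oas2 and Rsad2, had a row and were found in fewer than 10% of the cells of either plate. Of the interferons, receptors and sensors 11 of 17 were considered, with a median of 0.08 in all cells and -0.01 in the matched pairs.

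The start regions of 4 of these genes are shown because they hold the core of the interferon-stimulated response element, the site read by STAT and IRF factors. The letters searched were TTCNNTTTC on both strands, in 250 bases before to 50 bases after each start in RefSeq (GRCm38.p6). Each sequence is the 160 bases before the start, 5′ to 3′ on the strand of the gene, and capitals mark the match. Ifit3 has 3 matches, and in Bst2 2 overlapping matches form 1 run of capitals.
B2m (chr2:122147527-122147686, plus strand): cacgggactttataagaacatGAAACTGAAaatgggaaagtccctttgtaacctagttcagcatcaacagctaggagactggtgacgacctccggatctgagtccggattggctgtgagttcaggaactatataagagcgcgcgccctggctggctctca
H2-T23 (chr17:36032702-36032861, minus strand): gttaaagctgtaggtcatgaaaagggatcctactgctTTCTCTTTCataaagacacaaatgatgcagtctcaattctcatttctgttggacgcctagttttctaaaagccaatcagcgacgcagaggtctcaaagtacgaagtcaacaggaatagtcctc
Ifit3 (chr19:34583369-34583528, plus strand): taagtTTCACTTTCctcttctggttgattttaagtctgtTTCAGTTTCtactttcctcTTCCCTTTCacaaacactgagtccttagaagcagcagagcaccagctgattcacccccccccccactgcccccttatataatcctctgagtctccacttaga
Bst2 (chr8:71537473-71537632, minus strand): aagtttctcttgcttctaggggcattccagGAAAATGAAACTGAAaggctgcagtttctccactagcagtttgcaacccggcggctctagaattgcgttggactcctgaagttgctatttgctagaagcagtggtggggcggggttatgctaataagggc

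Of the interferon response genes considered, 23 had a start region and 14 of these held the letters (60.9%), 11 of them higher in mutant cells, against 338 of all 537 genes considered that held them. Of the MHC class I genes considered, 19 had a start region and 5 held the letters (26.3%), namely B2m, H2-T22, H2-T23, Psme1 and Erap1, and all 5 had a positive difference. The letters were found for 9.76% of all 27025 genes with a start region and for 8.53% of the 6292 genes considered that had one. The gamma-activated site, TTCNNNGAA, was found for 8 of 23 interferon response genes and 1 of 19 class I genes, against 9.55% of all genes. A match is a description of the letters and not a binding site.

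Complement genes had the highest median of the lists described. All 5 members considered of 12 listed were higher, 3 of them by at least 0.5, with a median of 0.76, and of 0.74 in the matched pairs. Besides C4b, these were C2, the protease that joins C4 in the convertase (median 75.3 TPM in wild type and 314 TPM in the mutant, difference 0.76), and Cd59a, which protects cells from lysis (28.4% and 66.7% of cells, 0.76). The regulators Cr1l and Serping1 differed by 0.28 and 0.26. Serping1 was detected in 4.94% of wild-type and 19% of mutant cells. It was thus considered through the mutant alone, and its sign was largely set by that limit. C3, the central component, was detected in no wild-type and in 1.19% of mutant cells. C4b (chr17:34728139-34743902) and C2 (chr17:34862602-34882100) lie in the MHC on chromosome 17, as does the class I gene H2-T23 (chr17:36029977-36032701, GRCm38.p6). In bulge cells C4b averaged 2.57 TPM in wild type and 0.0147 TPM in the mutant.

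MHC class II and surface checkpoint genes gave no such shift. Of 5 class II genes considered, 3 were higher, with a median of 0.12 that was 0.0025 in the matched pairs and turned negative (-0.35) among wells in rows A to D. Cd74 reached 41942 TPM in a wild-type cell and was detected in 21% and 21.4% of cells. Of 8 ligands and checkpoints considered, 3 were higher (median -0.04). Cd200, an inhibitory ligand for myeloid cells, differed by 0.69, by 0.29 in the pairs matched on gene number, and by -0.08 in the pairs matched also on keratinocyte RNA. Cd200 averaged 123 and 134 TPM in wild-type and mutant bulge cells. Cd274, the ligand of PD-1, was detected in 25.9% and 22.6% of cells.

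**Figure D3:**
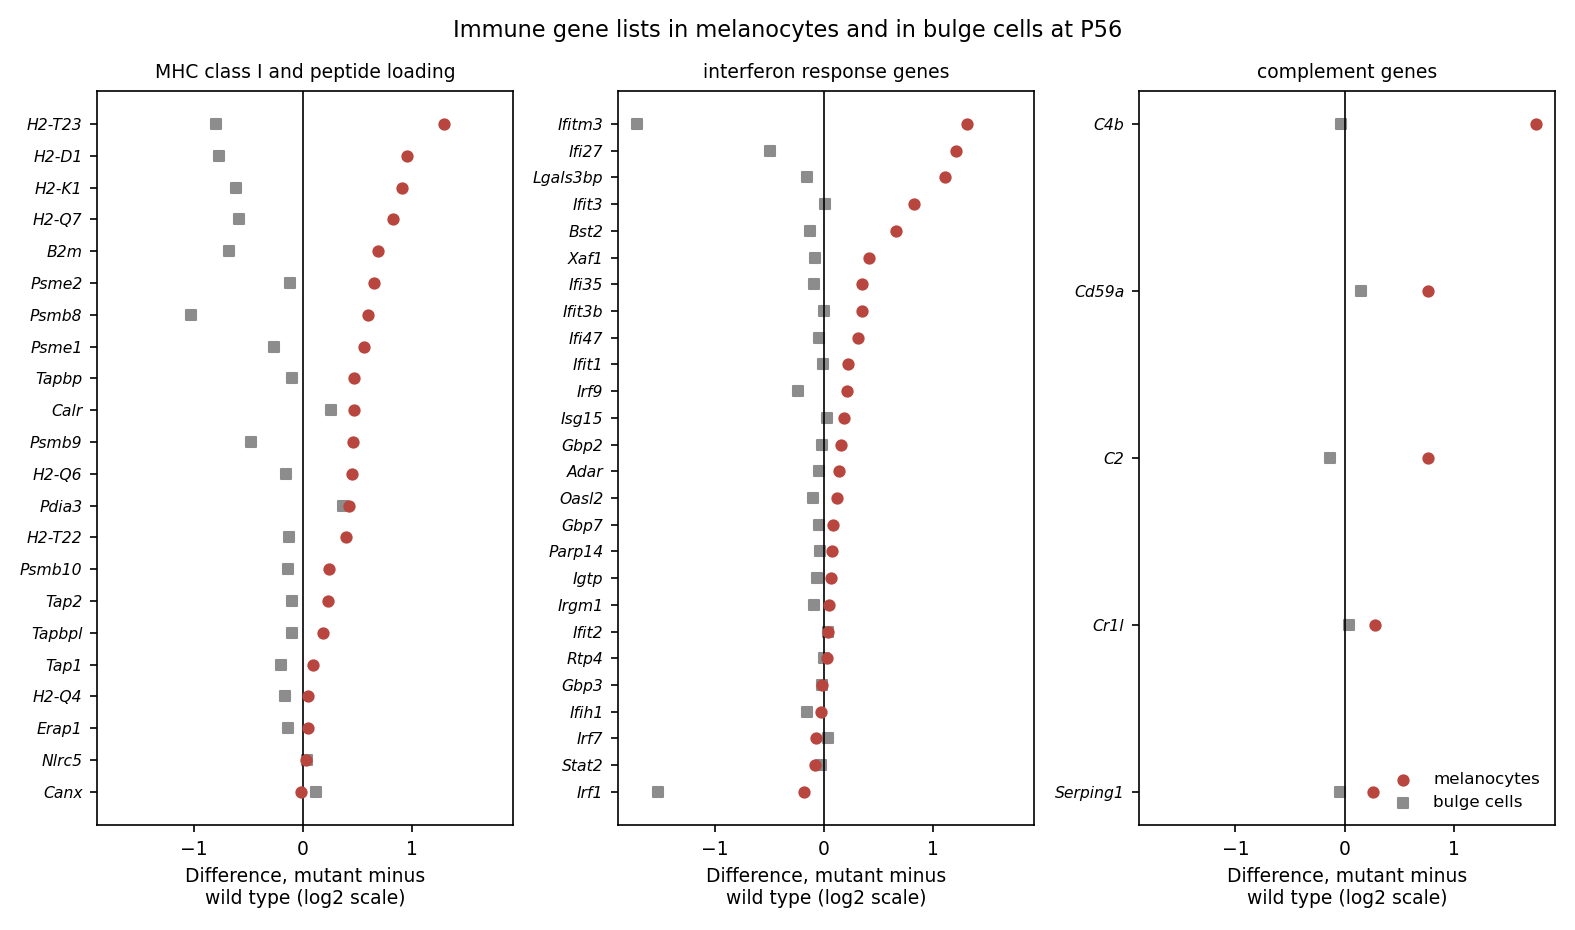
Each row is 1 gene considered of the MHC class I, interferon response (1 gene not drawn) and complement lists, and the horizontal axis is the difference, mutant minus wild type, on the log2 scale, in melanocytes (red circles) and in bulge cells of the same age (grey squares). In melanocytes 21 of 22, 22 of 27 and 5 of 5 genes lie to the right of 0, and in bulge cells 4 of 22, 5 of 27 and 2 of 5 do, with the gene not drawn counted.

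Lysosome and autophagy genes were higher in mutant cells. Of 32 members, all considered, 28 were higher, 9 by at least 0.5 and 1 lower by at least 0.5, with a median of 0.30 (0.20 in the matched pairs). Grn, the progranulin precursor that supports lysosomal enzymes, ran from 0 over a median of 181 to 1163 TPM in wild-type cells and from 0 over 456 to 1805 TPM in mutant cells (difference 1.09). Lamp1, the main lysosomal membrane protein, differed by 0.88, the tetraspanin Cd63 by 0.78 and the proteases Ctsz and Ctsd by 0.77 and 0.64. Cd63 is also a melanosome protein, and it was present in every cell, at a median of 3013 TPM in wild type and 4897 TPM in the mutant. The autophagy adaptor Sqstm1 (-0.53) and Map1lc3b (-0.49) were on the other side. In bulge cells the list had a median of 0.06 with 21 of 32 higher.

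Energy metabolism showed the same direction. Of 16 glycolysis genes considered, 14 were higher, 6 by at least 0.5 and none lower by that much (median 0.34, 0.30 in the matched pairs). Tpi1 (0.75), Aldoa (0.73), Gapdh (0.73), Eno1 (0.64), Pkm (0.58) and Pgk1 (0.55) led. Several of these have processed copies in the genome, which makes their level uncertain. The glucose transporter Slc2a1 (-0.20) and hexokinase Hk2 (-0.16), which stand at its entry, were lower. In bulge cells the glycolysis median was -0.19, with 5 of 16 genes higher. Of 50 oxidative phosphorylation genes, 46 were higher and 17 by at least 0.5 (median 0.33, 0.24 in the matched pairs), led by the cytochrome oxidase subunits Cox6a1 (0.82) and Cox6b1 (0.80). These genes were higher in mutant bulge cells as well, 44 of 50 with a median of 0.32. The share of TPM from mitochondrial genes themselves had a median of 7.56% in wild type and 5.62% in mutant cells. Antioxidant genes were higher in 15 of 18 cases, 5 by at least 0.5 (median 0.17, 0.12 in the matched pairs). After Prdx2, Prdx1 differed by 0.67, Gpx1 by 0.58, Prdx6 by 0.56 and catalase, Cat, by 0.52. In the pairs matched on gene number Prdx2, Prdx1, Gpx1, Prdx6 and Cat differed by 1.39, 0.28, 0.53, 0.47 and 0.28. In those matched also on keratinocyte RNA they differed by 1.38, 0.10, 0.57, 0.38 and 0.35. Mutant bulge cells had an antioxidant median of 0.16, with 11 of 18 genes higher. Cholesterol synthesis genes were higher in 14 of 21 cases, a share near that of all genes (60.7%), with a median of 0.12. The median was 0.04 in the matched pairs and -0.04 in wells of rows E to H.

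Translation genes were lower in mutant cells. Of 40 cytosolic ribosomal protein genes, 33 were lower, 5 by at least 0.5 (1.42% of all genes), with a median of -0.19, and of -0.38 in the matched pairs, where only 2 were higher. Rps27 ran from 1113 over a median of 6069 to 11568 TPM in wild-type cells and from 160 over 3738 to 13031 TPM in mutant cells (difference -0.82). Rplp1 and Rplp2, the stalk proteins of the large subunit, differed by -0.79 and -0.67, and Rps14 by -0.69. Ribosomal protein genes have many near copies, among which reads could be split. All 95 such genes together took a median of 11.4% of TPM in wild-type and 9.36% in mutant cells. Of 24 translation factors, 17 were lower, 2 by at least 0.5 (median -0.12, -0.31 in the matched pairs). These were Eif5 (-1.02), which helps select the start codon, and Eif4g2 (-0.54). The ribosomal genes had a median of -0.24 in bulge cells too, whereas the translation factors had one of 0.06 there.

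Stress response genes split. Of 12 heat shock genes, 9 were lower, 3 of them by at least 0.5 (median -0.15), namely Hsp90aa1 (-1.14) and the cochaperones Dnaja1 (-0.77) and Dnajb1 (-0.72), and in the matched pairs none of the 12 was higher. Of 16 unfolded protein response genes considered, 12 were higher (median 0.08), with Pdia4 at 0.49, while Dnajb9 (-1.28) and the regulator Atf4 (-0.78) were lower by at least 0.5. Of 21 immediate early genes considered, which are switched on within minutes of stimulation or of tissue handling, 4 were higher by at least 0.5 and 7 lower by at least 0.5 (median -0.12). The higher ones were Fos (1.28), Jun (1.03), Socs3 (0.86) and Zfp36 (0.59). Fos was detected in 86.4% of wild-type cells and in all 84 mutant cells, at medians of 1295 and 3239 TPM. The lower ones included Ppp1r15a (-1.03), the NF-kB inhibitor Nfkbia (-0.74), Gadd45b (-0.69) and Junb (-0.62). In bulge cells all 21 were lower in the mutant, with a median of -1.89, and Fos differed by -4.07 there. The 12 heat shock genes were mostly lower in mutant bulge cells too, with 2 higher and a median of -0.52.

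Pigment genes differed in both directions. Of 28 members considered of 32 listed, 20 were higher, against 60.7% of all genes. By at least 0.5, 3 were higher and 1 was lower, and the list had a median of 0.07. Dct, an enzyme of eumelanin synthesis, ran from 0 over a median of 10391 to 30651 TPM in wild-type cells and from 0 over 16475 to 42130 TPM in mutant cells. Its mean was 6.52 ± 1.39 (SD, n = 81 cells) against 7.08 ± 1.64 (SD, n = 84 cells), a difference of 0.56, less than the SD over cells. Mlana, a melanosome membrane protein, had medians of 746 and 1884 TPM (difference 0.93), and the exchanger Slc24a5 was detected in 37% and 60.7% of cells (0.68). Tyrp1 differed by 0.09 and the key enzyme Tyr by 0.39. Pmel, the scaffold of melanosome fibrils, had medians of 3187 TPM in wild type and 3232 TPM in mutant cells, but was detected in 88.9% and 79.8% of cells, so its mean log difference was -0.65. That sign depended on the setting, since Pmel differed by 0.30 among wells in rows A to D and by 0.058 in the log2 ratio of mean TPM. The melanosome motor Myo5a differed by -0.42. The 4 markers together took a median of 2.02% of TPM in wild-type and 3.15% in mutant cells.

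**Figure D4:**
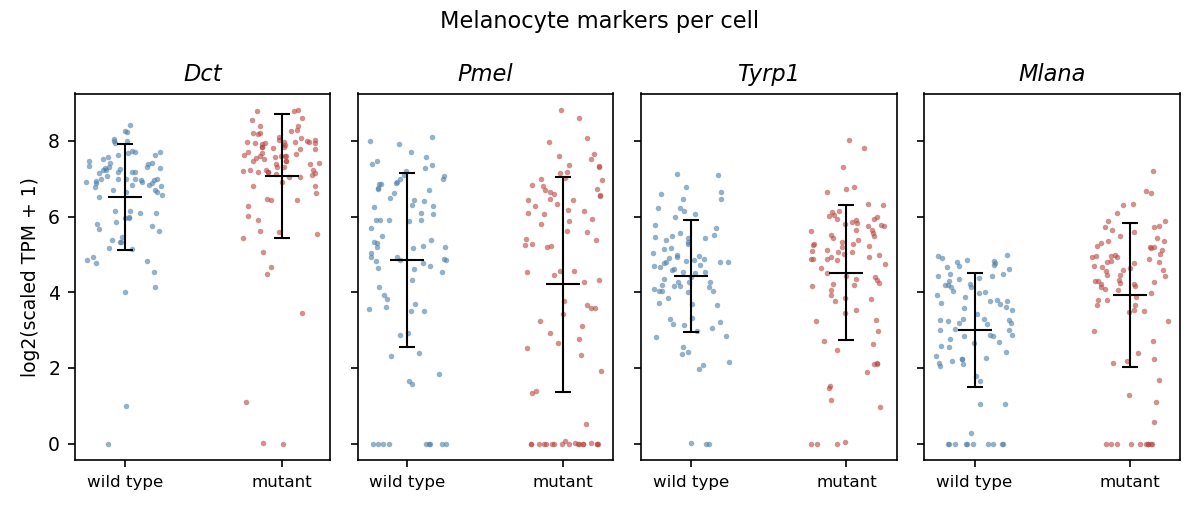
Each point is 1 kept melanocyte, with log2(scaled TPM + 1) of the 4 melanocyte markers on the vertical axis, 81 wild-type cells in blue and 84 mutant cells in red. Horizontal bars are the mean and whiskers 1 SD over cells. Pmel spreads widely in both groups (SD 2.30 and 2.84), and Mlana reaches higher values in mutant cells.

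The start regions of 3 pigment genes are shown because they hold CATGTG, the E-box that MITF is known to bind, which was searched on both strands and is written in capitals. Each sequence is again the 160 bases before the start on the strand of the gene, from RefSeq (GRCm38.p6). The Tyr sequence is that of the mouse gene whose promoter the transgene is named for, and it says nothing of the extent of the transgene.
Tyr (chr7:87493513-87493672, minus strand): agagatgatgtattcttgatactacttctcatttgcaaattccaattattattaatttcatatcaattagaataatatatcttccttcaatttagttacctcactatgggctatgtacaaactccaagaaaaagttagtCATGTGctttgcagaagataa
Tyrp1 (chr4:80834053-80834212, plus strand): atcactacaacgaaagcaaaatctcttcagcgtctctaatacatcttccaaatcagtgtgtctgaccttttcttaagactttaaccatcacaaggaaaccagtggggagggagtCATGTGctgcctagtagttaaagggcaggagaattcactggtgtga
Slc24a5 (chr2:125067967-125068126, plus strand): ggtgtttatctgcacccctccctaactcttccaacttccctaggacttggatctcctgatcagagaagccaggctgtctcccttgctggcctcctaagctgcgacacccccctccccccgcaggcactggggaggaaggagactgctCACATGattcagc

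Of 23 pigment genes considered that had a start region, 7 held CATGTG (30.4%), namely Tyr, Tyrp1, Dct, Slc24a5, Trpm1, Hps1 and Bloc1s1, and all 7 had a positive difference, as had 414 of the 623 genes considered that held it, from 0.04 for Hps1 to 0.68 for Slc24a5. The letters were found for 15.9% of all genes with a start region and for 9.90% of the genes considered. Mitf itself was detected in 81.5% of wild-type and 90.5% of mutant cells, with a difference of 0.16. Of 17 melanocyte transcription factors considered, 12 were higher, against 60.7% of all genes, and none differed by 0.5 (median 0.01). Sox10 differed by 0.34 and Pax3 by 0.22, both detected more often in mutant cells (77.4% and 76.2%) than in wild-type cells (58% and 54.3%). Tbx3 was detected in 11.1% of wild-type and in none of 84 mutant cells (limit for a count of 0, 3.57%).

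Among the receptors by which melanocytes sense their niche, Ednrb and Kit were lower in mutant cells. Of 16 considered, 7 were higher and 1 was lower by at least 0.5 (median -0.03, -0.10 in the matched pairs). Ednrb, the endothelin receptor, had medians of 302 TPM in wild type and 158 TPM in mutant cells (difference -0.57). It differed by -0.43 in the pairs matched on gene number and by -0.15 in those matched also on keratinocyte RNA. Kit, the receptor for stem cell factor, was detected in 90.1% (interval 81.5 to 95.6) and 73.8% of cells (63.1 to 82.8), with a difference of -0.47. In the same 2 sets of pairs Kit differed by -0.66 and -0.37. Cd44, a receptor for hyaluronan and osteopontin, differed by -0.31, Erbb3 by 0.22 and the melanocortin receptor Mc1r by 0.04. Glial and neural crest genes had a median of 0.02 over 6 considered, of which S100b (28.4% and 51.2% of cells) differed by 0.52. With Pmp22 it is also a Schwann cell transcript. The 10 Schwann cell markers, Pmp22 among them, summed to a median of 566 TPM in wild-type and 966 TPM in mutant cells. They reached 1 TPM in 69 of 81 and 82 of 84 cells. Their member Mbp, a myelin gene, was detected in 8 wild-type cells and 1 mutant cell. A Schwann cell source of these transcripts was not tested.

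RAS pathway transcripts differed little. Nras itself ran from 0 over a median of 49.8 to 654 TPM in wild-type cells and from 0 over 33.3 to 924 TPM in mutant cells, and was detected in 50 of 81 (61.7%) and 52 of 84 cells (61.9%). Its difference was -0.17, so the mouse gene Nras was not higher on the mutant plate. Whether reads of the transgene map to mouse Nras was not stated in the sources at hand. Of 12 RAS and MAPK genes considered, 7 were higher and none differed by 0.5 (median 0.03), with Map2k1 at 0.27. Of 13 genes that ERK activity induces and that feed back on it, 5 were higher and none differed by 0.5 (median -0.08). Phlda1 was higher by 0.36 and found in all 84 mutant cells, while the phosphatases Dusp4 (43.2% and 26.2% of cells) and Dusp5 (14.8% and 2.38%) differed by -0.25 and -0.16.

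Senescence genes differed in both directions, and most secreted factors were below the detection limit. Of 25 senescence and tumour suppressor genes 18 were considered, 8 of them higher (median -0.03). Cdkn1a, the p21 inhibitor of cyclin-dependent kinases, was lower, with medians of 226 TPM in wild type and 26.6 TPM in mutant cells (difference -0.86), and it differed by -1.35 in bulge cells. Cdkn2a was detected in no cell of either plate, with limits of 3.70% in wild type and 3.57% in the mutant. Cdkn2b, the p15 gene, was detected in 1 wild-type (1.23%, interval 0.0313 to 6.69) and 3 mutant cells (3.57%, 0.743 to 10.1), and H2afx in 24.7% and 26.2%. Spp1, which encodes osteopontin, was detected in none of 81 wild-type cells (limit 3.70%) and in 5 of 84 mutant cells (5.95%, 1.96 to 13.3), 1 of which held 5037 TPM. The study reports more osteopontin in mutant melanocytes in bulk RNA and, as protein, by cytometry, western blot and ELISA. By RNA staining of mutant skin it also shows dermal melanocyte clusters with Spp1, Cdkn2b and Cdkn2a transcripts. In its bulk RNA, Cdkn2b and H2afx were higher in mutant melanocytes too. Of 45 factors of the senescence-associated secretory phenotype 9 were considered, with a median of 0.08. Serpine2 (13.6% and 35.7% of cells, 0.48), Timp1 (2.47% and 17.9%, 0.35) and Mmp2 (1.23% and 22.6%, 0.33) led. In the pairs matched on gene number they differed by 0.32, 0.10 and 0.25, and in those matched also on keratinocyte RNA by 0.22, 0.23 and 0.32. Timp1 and Mmp2 reached 10% of cells in the mutant alone, so their positive sign was largely set by that limit. Il6 was detected in 1.23% of wild-type and no mutant cells.

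Cell cycle genes as groups were not higher on the mutant plate. Of 22 S phase genes considered, 8 were higher (median -0.03), and the replication clamp Pcna differed by -0.39 and the histone mRNA binding gene Slbp by -0.52. Of 16 G2/M genes considered of 54 listed, 5 were higher (median -0.04). The study names 13 mitosis genes for mutant melanocytes in bulk, of which 3 were considered here, and Aurka was detected in 4.94% and 4.76% of cells. Its text also names 12 signalling factors as examples of a larger set that was higher in bulk RNA. Of these 12, only Fstl1 reached 10% of cells here, with a difference of -0.01. The rest of that set was not taken up as a list. Medians in bulge cells were 0.13 for S phase and 0.14 for G2/M.

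Signalling lists differed through single genes. In the BMP and TGF-beta list 14 of 27 genes were considered, 6 were higher and 2 were lower by at least 0.5 (median -0.04). These were Id3 and Id2, which are the direct BMP targets among them. Id2 had medians of 281 and 96.2 TPM (difference -0.94). Smad1, Smad4 and Smad5, which carry the BMP signal, differed by -0.06 to -0.10. Id2 and Id3 were lower in mutant bulge cells too, by -0.54 and -0.68. Of 12 WNT genes considered, 6 were higher (median 0.0042). Wls, which sorts WNT proteins for secretion, differed by 0.71, the secreted regulator Dkk3 by 0.55 and Ctnnb1, which encodes beta-catenin, by 0.41. Of 8 Notch genes considered 2 were higher (median -0.09), and Notch1 was detected in 51.9% and 35.7% of cells. Among 16 matrix genes considered 12 were higher (median 0.12), with Sparc at 1.17 and Cyr61 at -0.53. Among 25 adhesion and migration genes considered 15 were higher, a share near that of all genes (60.7%), and 13 in the matched pairs. By at least 0.5, 5 were higher and 1 was lower (median 0.08). The tetraspanins Cd81 (0.66) and Cd9 (0.63), the actin regulators Tmsb4x (0.84) and Pfn1 (0.61) and the small GTPase Rhoc (0.51) were higher, and the actin gene Actg1 was lower (-0.59). The sign for Tmsb4x turned in the log2 ratio of mean TPM (-0.31), where 1 wild-type cell held 29289 TPM.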

How the data were processed

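The authors deposited 1 table per cell type, genotype and age with TPM values per gene and cell. Per the study's methods and labels, C1 chips and a SMARTer kit (labels: Smart-seq2) gave full-length cDNA without molecular identifiers, chambers with no or several cells were left out by eye, and reads were aligned with STAR 2.4.2 to GRCm38 (mm10) and quantified with RSEM. The methods name FPKM for this step, while tables and labels name TPM. In kept melanocytes TPM summed to 770850 to 960820 rather than to 1 constant, so the tables hold part of the genes. Full-length reads without identifiers are not independent molecules, and sequencing depth is unknown.

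Of 7 tables, 4 were used, those of melanocytes and bulge cells at P56. Values of 40 symbols with several identifiers were averaged (31002 identifiers, 30957 symbols), and symbols that a spreadsheet had turned into dates were given 1 spelling. Bulge cells were kept with 2000 to 7000 genes, as the study's methods state. No doublet caller was run and cells were not clustered. Genes considered reached TPM 1 in 10% or more of the cells of 1 genotype or both. Lists were described with at least 4 members considered, which held for 34 of 45 lists, and 8 listed genes had no row. Named genes are the 15 largest differences in each direction among genes that reached TPM 1 in 25% or more of one group (predicted, sex-linked, mitochondrial and ribosomal protein genes and pseudogenes left out), up to 6 members per list by absolute difference, the 4 markers, Nras, Spp1 and Cdkn2b. Other members are named from their list's values, and a few named genes are not reported here. The cells, lists and rules were chosen with earlier results of these data known. Calculations used Python 3.11.15, pandas 2.3.3, NumPy 2.4.6 and SciPy 1.17.1, and were tested on simulated data. The alternatives were 7 other choices of cells, 3 scalings, a pseudocount of 0.1, 2 detection filters, a log2 ratio of mean TPM and a subtraction of bulge RNA, 15 in all, besides detection above TPM 0 or at TPM 10 for shares of cells.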

Additional observations from a re-analysis of the deposited data

How the results depend on the processing

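The counts of genes past 0.5 followed the scale more than the cells. Genes higher by at least 0.5, 229 in the report, numbered 366 in wells of rows A to D, 1577 with a pseudocount of 0.1, 3243 with log2(TPM + 1) without scaling, 2516 with the log2 ratio of mean TPM and 2375 after subtraction of bulge RNA. Genes lower by at least 0.5, 118 in the report, numbered 179 in the pairs matched on gene number, 226 in those matched also on keratinocyte RNA, 380 with a pseudocount of 0.1, 686 without scaling, 1903 with the log2 ratio and 2084 after subtraction. The cause of the last 2 pairs of values was not tested. A positive difference was found for 2925 of 4607 genes detected in at least 25% of cells and for 9270 of 16369 genes with no filter, since other numbers of genes entered. The positive share was 48.5% and 49.8% in the matched pairs, and the median of all genes was 0.14 with a pseudocount of 0.1 and 0.33 without scaling.

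Of 95 named genes past 0.5, between 93 and 95 kept their sign in each alternative. They were picked by their difference in the same cells, so this agreement is not independent. A value was counted as reversed only if its sign turned and it was at least 0.1 (lists) or 0.5 (genes) from 0 in the report. Of 3704 values of lists and single genes under the alternatives, 13 were reversed. Of the others, 3421 moved by less than the SD over cells and 270 by more. These others include sign changes of values nearer 0, which are not listed. Reversed values were those of the keratinocyte markers in the pairs matched on gene number (-0.000627) and also on keratinocyte RNA (-0.087), Cd200 in the latter (-0.079), MHC class II in rows A to D (-0.35), with the log2 ratio (-0.79) and after subtraction (-0.82), Pmel in rows A to D (0.30), with the log2 ratio (0.058) and after subtraction (0.058), Tmsb4x with the log2 ratio (-0.31) and after subtraction (-0.35), and in rows E to H the melanocyte markers (-0.087) and cholesterol synthesis (-0.042). The cause was not tested. No paired analysis was possible because each genotype is 1 sample.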

Other observations

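Some genes reached TPM 1 in 30% or more of one genotype's cells and in at most 5% of the other's, a group chosen after the values were seen. Of these 10 genes, 3 were found mainly in mutant cells. Serpina3n, a secreted protease inhibitor, was detected in 33 of 84 mutant cells (39.3%) and 2 of 81 wild-type cells (2.47%), a difference of 0.84 that was 0.75 in the pairs matched on gene number. Lgi4, a secreted protein of the glial lineage, reached 33.3% of mutant against 3.70% of wild-type cells (0.41) and no bulge cell. Fads2, a fatty acid desaturase, was detected in 33.3% and 2.47% (0.40), and it was also found in bulge cells, 52.8% in the mutant against 4.82% in wild type.

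The other 7 were found mainly in wild-type cells. They were Fxyd2 and Fxyd6, and Gm10020, Gadl1, Gm11127, Aldoart1 and Slc38a6, whose differences were between -0.09 and -0.001. Gm10020 was detected in 32.1% of wild-type and 4.76% of mutant melanocytes, and in 100% and 98.9% of bulge cells.

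The sodium pump regulators and Lgi4 form 2 neighbouring pairs in the RefSeq annotation (GRCm38.p6). Fxyd6 (chr9:45369470-45396159) lies beside Fxyd2 (chr9:45399709-45410278), both lower in mutant cells. Fxyd1 (chr7:31051678-31055873) lies beside Lgi4 (chr7:31058909-31070935), both higher in mutant cells.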
